A study of Mus musculus with 4 samples.

Results

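The genes described here supply T cells with amino acids and one-carbon units, or are known targets of the transcription factor ATF4. They were chosen by symbol, with earlier results of these data known, and number 39. The list holds 5 regulators or targets in the amino acid stress response, 6 enzymes of asparagine, serine and proline synthesis and 5 one-carbon enzymes. It also holds 8 amino acid transporters, 12 cytoplasmic aminoacyl-tRNA synthetases and 3 enzymes of transamination and transsulfuration. All 39 were listed among the 23259 named genes of the vector table and 33 among the 10663 named genes of the DSS table. Chac1, Pycr1, Slc1a4, Gpt2, Cth and Cbs have no row in the DSS table, which lists genes above 1 FPKM in at least 1 library. FPKM, the unit of both tables, is a level per transcript length, scaled for the number of fragments in the library.

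ATF4 is a basic leucine zipper factor whose translation increases when the initiation factor eIF2 is phosphorylated, for example by the kinase GCN2 when uncharged tRNA accumulates. It binds C/EBP-ATF response elements, often as a dimer with a C/EBP protein, in genes that import amino acids, make the non-essential ones and charge tRNA. Activated T cells depend on this supply for growth, and in them Myc and mTORC1 also act on many of the same genes.

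Total RNA was sequenced from 4 mouse libraries in 2 separate experiments with 1 library in each group. The first used cells positive for human CD2 from spleens of Balb/c Foxp3-hCD2 reporter mice, in which human CD2 marks cells that express Foxp3 (regulatory T cells, Treg), either untreated or after 7 days of drinking water with 3% dextran sulfate sodium (DSS), an agent that injures the colon epithelium. The second used naive CD4 T cells from C57BL6 mice (wild-type) that carried a mock vector or a vector for the transcription factor Sox12, called mock cells and Sox12 cells here. Sox12 itself, which is outside the naming rule and was chosen after its values were seen, had 1.56 FPKM in mock and 829 FPKM in Sox12 cells. The sources used here give no animal ages, animals per library, time after transduction or sort for the vector.

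With 1 library per group there is no replicate check and no test, and a difference below describes 2 libraries. Differences are of log2(FPKM + 1), DSS minus untreated or Sox12 vector minus mock vector, and ratios are of the unlogged FPKM. A gene passed the filter with a mean of 1 FPKM or more over its 2 libraries. The DSS table kept 10545 genes, 33 of them members, and the vector table kept 10822, 38 of them members. Cbs, the enzyme that opens transsulfuration, did not pass, with 0.110 FPKM in mock and 0.105 FPKM in Sox12 cells, about 4.11 and 4.15 fragments. In mock and Sox12 cells each FPKM rested on about 42.6 and 45.1 fragments per kb of transcript, so the counting error of most members was small. The depth of the DSS libraries is unknown.

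The libraries carried T cell markers in both experiments, with 7 of 7 listed and Cd3e at 468 and 473 FPKM in Treg and 259 and 214 FPKM in transduced cells. Foxp3 had 88.2 and 84.9 FPKM in Treg, and 20.9 FPKM in mock and 127 FPKM in Sox12 cells. Of the 5 Treg markers, Foxp3 among them, 2 were higher and 3 lower in the DSS library (summed 499 and 503 FPKM). With the Sox12 vector 2 were higher and 3 lower (summed 1169 and 1051 FPKM), the lower ones being Il2ra, Ctla4 and Tnfrsf18. Of the other cell types, erythroid markers were higher in the DSS library in 6 of 6 cases, with a summed level of 399 FPKM without and 614 FPKM with DSS. Basophil and mast cell markers were higher in 5 of 5, with summed levels of 7.49 and 28.5 FPKM. Neutrophil and myeloid precursor markers were higher in 3 of 5 (summed 20.2 and 29.2 FPKM), namely Mpo (9.99 and 15.2 FPKM), Prtn3 (4.24 and 8.16 FPKM) and Elane (3.73 and 4.77 FPKM). Plasma cell markers were lower in 4 of 5 (346 and 297 FPKM). The 3 listed markers of NK or CD8 T cells were each lower (27.8 and 24.04 FPKM). In the transduced cells NK and CD8 T cell markers were higher in 6 of 6, with summed levels of 123 and 387 FPKM, and T cell markers were lower in 6 of 7 (1378 and 1110 FPKM). Of the 6 erythroid markers 3 were higher and 3 lower and 4 stayed below 1 FPKM in both libraries. Their sum of 49.1 and 13.8 FPKM followed Hbb-b1 (46.6 and 9.27 FPKM), while Hba-a1 had 1.74 and 4.23 FPKM. The 5 neutrophil and the 5 basophil markers were each below 1 FPKM in both of these libraries. In these bulk samples fewer cells of a type and less RNA per cell cannot be told apart, and the part of these cells in the results below was not tested.

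Promoter sequences show where the members carry the letters that ATF4 dimers are known to bind. RefSeq windows of GRCm38.p6, from 250 bases before to 50 bases after a gene start, were matched for 31 of the 39 members by symbol or synonym. No window was matched for Slc7a5, Slc1a5, Slc38a1, Cars, Lars, Nars, Wars and Cth. The submitters' processing notes name the older build mm9, so the coordinates here belong to the reference and not to the tables. The core of the C/EBP-ATF response element was searched as TGATGNAA on both strands, which reads TTNCATCA on the gene strand when the match lies on the other one. The E-box of Myc and related factors was searched as CACGTG, which reads the same on both strands. Matches of the cores did not overlap those of the E-box.

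Of the 31 members 11 (35.5%) held the element core, against 4.51% of 27025 genes with a window and 2.79% of 8608 such genes past the filter in the vector table. The list includes known ATF4 targets, so the contrast of these shares is in part set by how the members were chosen. The 11 were Trib3, Chac1, Asns, Pycr1, Slc7a11, Slc1a4, Aars, Gars, Iars, Tars and Yars. They held 13 matches, 4 on the gene strand and 9 on the other, because Slc7a11 and Aars held a pair each. The E-box was found in 5 members (16.1%), namely Aldh18a1, Aars, Iars, Tars and Cbs, against 8.09% of all genes with a window and 12.2% of those past the filter. A match is a description of letters, and a window without one says only that the letters are not in it.

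The windows of Asns, which makes asparagine, and Aars, which charges alanine tRNA, are printed whole, since Asns had the largest difference of the members in the DSS experiment and Aars held most matches. Capitals mark the element core and the E-box, and each sequence runs 5′ to 3′ on the gene strand.
Asns, chr6:7693160-7693459, minus strand: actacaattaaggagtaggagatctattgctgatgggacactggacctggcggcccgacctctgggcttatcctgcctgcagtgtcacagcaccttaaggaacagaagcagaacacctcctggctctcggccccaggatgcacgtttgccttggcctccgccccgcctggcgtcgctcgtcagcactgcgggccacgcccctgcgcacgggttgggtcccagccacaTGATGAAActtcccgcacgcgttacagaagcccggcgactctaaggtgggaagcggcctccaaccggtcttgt
Aars, chr8:111033592-111033891, plus strand: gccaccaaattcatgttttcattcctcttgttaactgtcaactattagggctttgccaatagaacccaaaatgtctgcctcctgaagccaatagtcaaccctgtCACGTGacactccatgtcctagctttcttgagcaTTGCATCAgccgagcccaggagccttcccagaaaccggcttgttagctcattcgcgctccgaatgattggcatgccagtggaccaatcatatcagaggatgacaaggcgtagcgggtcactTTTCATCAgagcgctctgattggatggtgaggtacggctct

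The next stretches show the same letters, again in capitals, with their flanks in other members. Gars, Tars, Aldh18a1, Iars, Yars and Slc7a11 follow from their level in the vector table, and the last 4 were added to complete the members with the element core.
Gars, chr6:55037945-55038004, plus strand: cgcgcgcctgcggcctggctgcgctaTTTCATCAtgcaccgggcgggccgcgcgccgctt
Tars, chr15:11399609-11399699, minus strand: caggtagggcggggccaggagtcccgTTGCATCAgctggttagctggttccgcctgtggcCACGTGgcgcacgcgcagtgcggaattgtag
Aldh18a1, chr19:40588491-40588548, minus strand: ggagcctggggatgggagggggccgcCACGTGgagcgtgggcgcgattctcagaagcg
Iars, chr13:49682035-49682092, plus strand: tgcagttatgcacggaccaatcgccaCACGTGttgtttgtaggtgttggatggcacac
Iars, chr13:49682111-49682170, plus strand: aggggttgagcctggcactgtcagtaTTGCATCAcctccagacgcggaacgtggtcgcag
Yars, chr4:129189880-129189939, plus strand: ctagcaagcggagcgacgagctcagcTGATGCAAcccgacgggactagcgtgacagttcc
Slc7a11, chr3:50443627-50443705, minus strand: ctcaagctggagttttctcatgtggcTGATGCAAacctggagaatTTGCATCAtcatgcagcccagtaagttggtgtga
Trib3, chr2:152344013-152344072, minus strand: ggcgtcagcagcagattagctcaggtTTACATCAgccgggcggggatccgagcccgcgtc
Chac1, chr2:119351023-119351082, plus strand: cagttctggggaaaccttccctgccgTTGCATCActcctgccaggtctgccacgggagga
Slc1a4, chr11:20332684-20332743, minus strand: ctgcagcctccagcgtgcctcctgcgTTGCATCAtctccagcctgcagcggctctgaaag
Pycr1, chr11:120643818-120643877, minus strand: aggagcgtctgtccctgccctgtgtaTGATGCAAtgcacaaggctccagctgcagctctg

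Measured from the gene start, the core began 23 bases upstream in Asns (position -23), at -112 and 9 in Aars, at -66 and -47 in Slc7a11, and at -193 in Chac1, the farthest from the start. In Trib3, Iars, Yars and 1 match of Aars the core lay past the gene start, at 14, 7, 3 and 9.

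**Figure D1:**
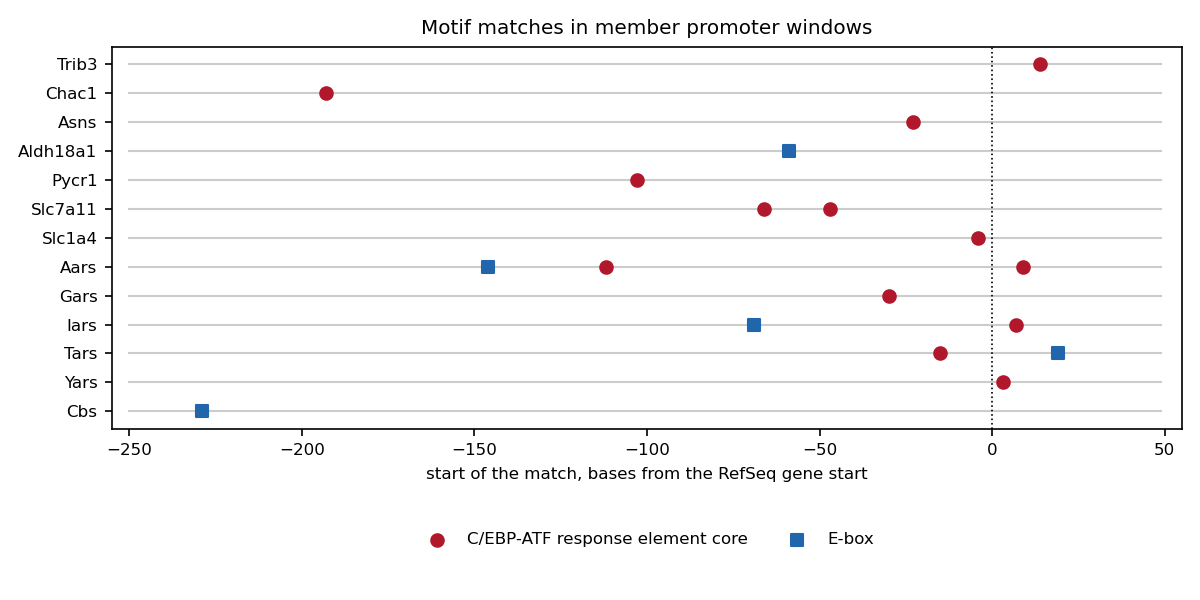
Start of each match in the promoter window of the members that hold one, in bases from the RefSeq gene start (dotted line), with circles for the C/EBP-ATF response element core and squares for the E-box. The 13 core matches lie between -193 and 14.

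With the Sox12 vector most members were lower than with the mock vector. Of the 38 past the filter 33 (86.8%) were lower, against 51.1% of all genes past the filter, and 5 were higher (48.9% of all genes). The median difference of the members was -0.30 on the log2(FPKM + 1) scale, with the middle 50% between -0.43 and -0.14, against -0.01 for all genes. The differences were moderate. At least 1.5 times lower on the FPKM + 1 scale were 7 members (18.4%, against 6.88% of all genes), namely Atf5, Trib3, Chac1, Asns, Psph, Slc1a4 and Gpt2. Slc38a2 alone was at least 1.5 times higher, where 10.1% of all genes were. No member differed by 2 times on that scale in either direction, where 4.85% of all genes were higher and 1.91% lower by as much.

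**Figure D2:**
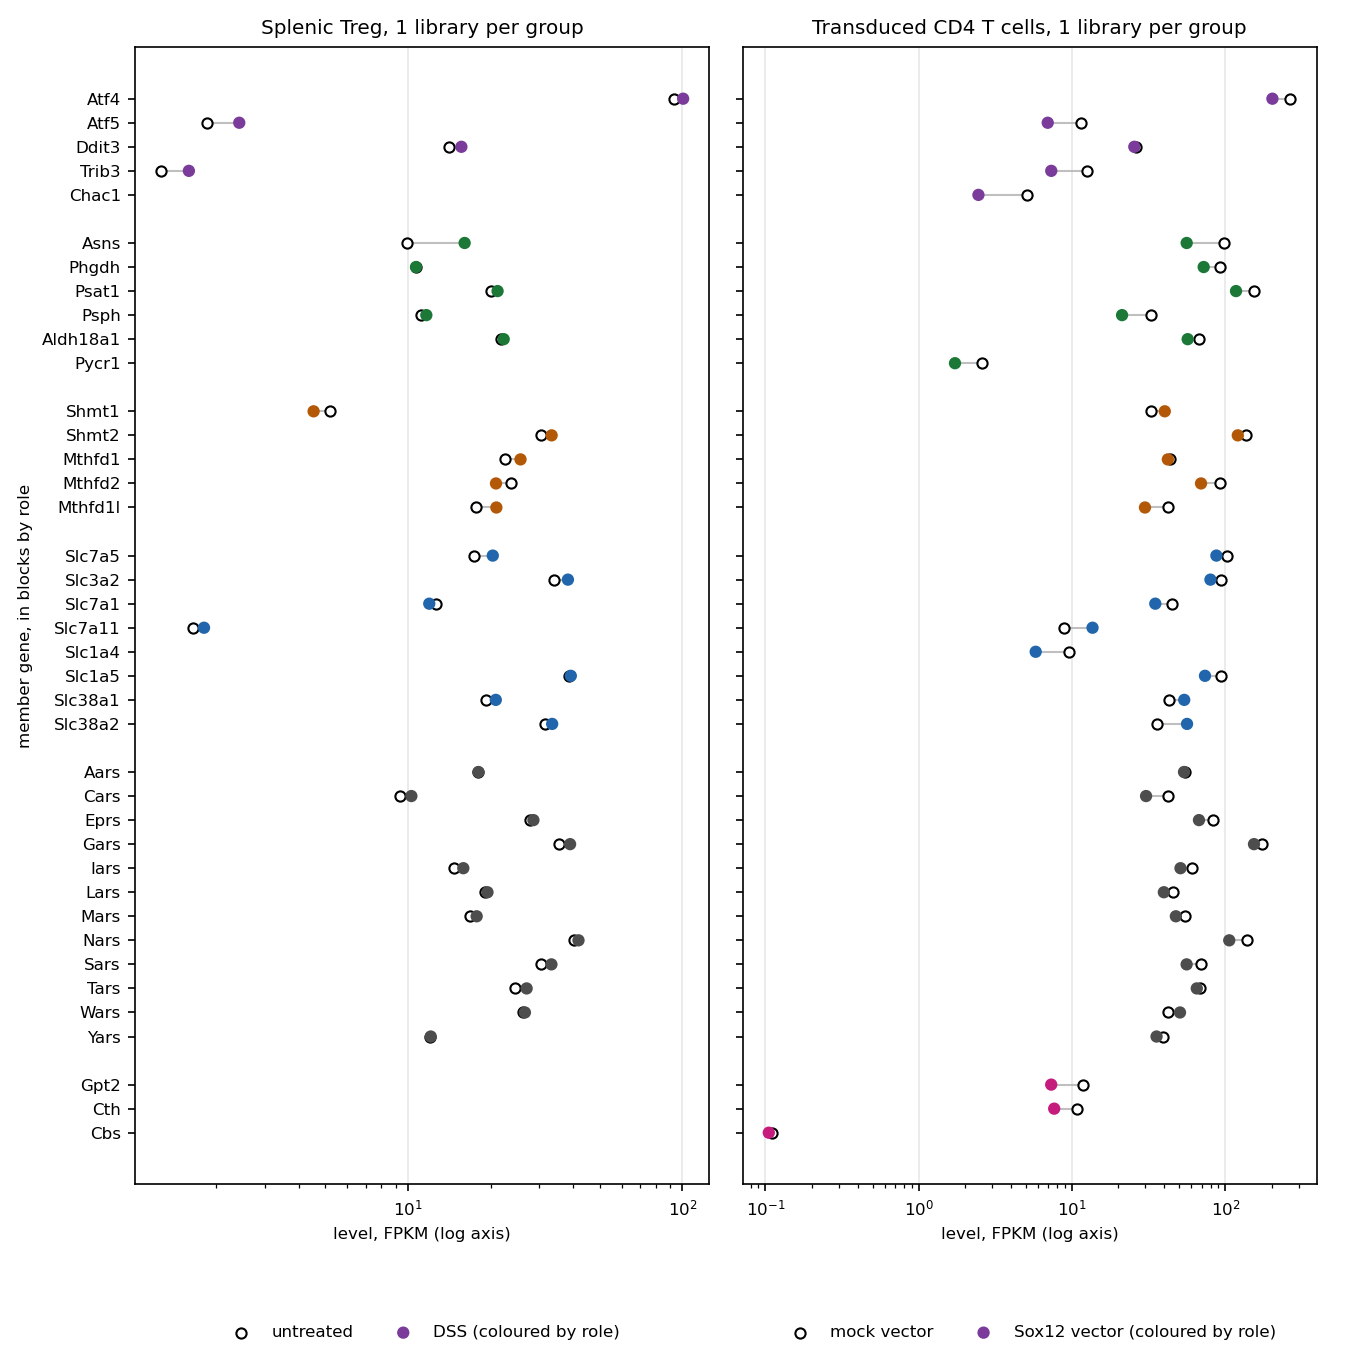
Level of each member in FPKM on a log axis, in blocks by role, with open circles for the untreated or mock vector library and filled circles for the DSS or Sox12 vector library. In the right panel most filled circles lie left of the open ones, with Atf4 highest at 266 and 203 FPKM, and in the left panel the pairs nearly coincide apart from Asns.

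The regulators were all lower with the Sox12 vector, where 51.1% of all genes were, and by very different amounts. Atf4, the factor that names the response, had 266 FPKM in mock and 203 FPKM in Sox12 cells (ratio 0.763). It was the most abundant member in each of the 4 libraries. Its relative Atf5 had 11.4 FPKM in mock and 6.94 FPKM in Sox12 cells (ratio 0.610). Ddit3, which encodes the stress factor CHOP, stood at 26.1 and 25.5 FPKM (ratio 0.974), and its 95% counting interval of 0.873 to 1.08 holds 1. The direction of that gene turned when totals were made equal without the 20 highest genes.

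Trib3 and Chac1 were among the members that were lowest relative to the mock vector. Trib3, a pseudokinase that ATF4 induces and that restrains ATF4, had 12.6 FPKM in mock and 7.31 FPKM in Sox12 cells (ratio 0.582). Chac1, which breaks down glutathione and is a known target of ATF4, had 5.06 FPKM in mock and 2.45 FPKM in Sox12 cells. That ratio of 0.484 was the lowest of all members, with a 95% counting interval of 0.403 to 0.582. The log2 difference of Chac1 was -0.81, and 3.21% of the genes past the filter had a lower one.

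Synthesis enzymes for asparagine, serine and proline had 6 of 6 genes lower (median -0.40), against 51.1% of all genes. Asns, the asparagine synthetase, had 98.2 FPKM in mock and 55.9 FPKM in Sox12 cells (ratio 0.569, 95% counting interval 0.540 to 0.600). Among the 3 enzymes that make serine from a glycolytic intermediate, Phgdh, which takes the first step, had 92.1 and 72.2 FPKM (ratio 0.784). Psat1, which takes the next step, had 155 and 117 FPKM (ratio 0.758). The last enzyme, Psph, had the largest difference of the 3, with 32.7 FPKM in mock and 21.2 FPKM in Sox12 cells (ratio 0.647). Summed over the 3 genes the level was 280 FPKM in mock and 211 FPKM in Sox12 cells. For proline, Aldh18a1, which makes the precursor, stood at 67.4 and 56.8 FPKM, and Pycr1, which completes it in mitochondria, at 2.60 and 1.72 FPKM. Pycr1 rested on about 93.0 and 65.2 fragments, and the counting interval of its ratio, 0.474 to 0.917, is wide.

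Of the one-carbon enzymes, the mitochondrial enzymes were lower in 3 of 3 cases and the cytosolic ones were not uniform. Of all genes past the filter 51.1% were lower. Mthfd2, the mitochondrial dehydrogenase that is scarce in most resting tissues, had 92.4 FPKM in mock and 69.4 FPKM in Sox12 cells (ratio 0.751). Mthfd1l, which releases formate from mitochondria, had 42.0 and 29.9 FPKM (ratio 0.712). Shmt2, which splits serine in mitochondria, had 136 and 120 FPKM (ratio 0.883). The cytosolic counterpart Shmt1 was higher, at 32.9 FPKM in mock and 40.2 FPKM in Sox12 cells (ratio 1.22). Mthfd1, the cytosolic enzyme with 3 activities, had 43.6 and 42.1 FPKM, and its direction turned when totals were made equal without the 20 highest genes. Summed levels were 271 and 220 FPKM for the mitochondrial enzymes and 76.5 and 82.4 FPKM for the cytosolic ones, so the library with the Sox12 vector had the lower sum in mitochondria and the higher in the cytosol.

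The transporters split, with 5 of 8 lower and 3 higher, near the 51.1% and 48.9% of all genes. Slc7a5 and Slc3a2, which pair to form the leucine importer LAT1, had 102 and 87.4 FPKM (ratio 0.852) and 94.2 and 79.9 FPKM (ratio 0.848). The ratios of these partners lay close together. Slc1a5, the glutamine carrier ASCT2, had 93.0 FPKM in mock and 73.6 FPKM in Sox12 cells (ratio 0.791). Slc1a4, which carries alanine, serine and cysteine, had 9.54 and 5.79 FPKM (ratio 0.607). Slc7a1, an importer of arginine and lysine, had 45.1 and 34.9 FPKM (ratio 0.773). All 3 were thus lower with the Sox12 vector, Slc1a4 most.

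The transporters that were higher with the Sox12 vector were the system A carriers of small neutral amino acids and the cystine importer. Slc38a2, also known as SNAT2, had 35.6 FPKM in mock and 56.2 FPKM in Sox12 cells (ratio 1.58, 95% counting interval 1.53 to 1.62). Slc38a1 had 42.6 and 53.9 FPKM (ratio 1.26). Slc7a11, the xCT chain that exchanges glutamate for cystine, had 8.82 FPKM in mock and 13.6 FPKM in Sox12 cells (ratio 1.54). Slc7a11 also held both element cores shown above, and Slc38a2 is itself a known ATF4 target, so members known for the same regulator stood on both sides of the mock vector level.

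Among the 12 cytoplasmic synthetases 11 were lower, against 51.1% of all genes, with a median difference of -0.19 and mostly small differences. Cars, for cysteine, had 42.2 FPKM in mock and 30.4 FPKM in Sox12 cells, the lowest ratio of the group at 0.721. Nars, for asparagine, followed with 139 and 106 FPKM (ratio 0.764). Sars, for serine, had 69.3 and 55.9 FPKM (ratio 0.807), and Eprs, for glutamate and proline, 82.4 and 67.2 FPKM (ratio 0.816). These were the synthetases farthest below the mock vector. Iars, Lars, Mars, Gars, Yars and Tars, for isoleucine, leucine, methionine, glycine, tyrosine and threonine, had ratios of 0.844, 0.871, 0.872, 0.889, 0.908 and 0.946. Iars had 60.4 and 50.9 FPKM, Lars 45.6 and 39.7 FPKM, Mars 54.5 and 47.5 FPKM, Yars 39.1 and 35.6 FPKM and Tars 68.8 and 65.1 FPKM. The most abundant of the group was Gars, at 173 and 154 FPKM. Aars stood at 54.2 and 53.7 FPKM, and its direction turned when totals were made equal without the 20 highest genes. Wars, for tryptophan, was the 1 synthetase above the mock vector, with 42.2 and 50.6 FPKM (ratio 1.20). Wars is also known as an interferon-gamma induced gene, and Ifng, chosen here after its values were seen, had 41.3 and 191 FPKM in the same libraries. The part of interferon-gamma in the level of Wars was not tested.

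Summed over the 12 synthetases the level was 870 FPKM in mock and 756 FPKM in Sox12 cells (ratio 0.869). The 8 cytoplasmic synthetases outside the list had 581 and 562 FPKM (ratio 0.968). With the 3 scaffold proteins of the synthetase complex 7 of 11 were lower (median difference -0.04). Mitochondrial synthetases, which are separate genes, had 15 of 17 genes lower (median -0.14), with Iars2 at 36.3 and 29.1 FPKM and Lars2 at 43.9 and 37.5 FPKM. Beside these counts, 51.1% of all genes past the filter were lower, with a median of -0.01.

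Of the last role, Gpt2, the mitochondrial alanine transaminase, had 11.8 FPKM in mock and 7.31 FPKM in Sox12 cells (ratio 0.618). Cth, which makes cysteine from cystathionine, had 10.8 and 7.64 FPKM (ratio 0.711). Both were lower than in mock cells, with counting intervals of the ratio of 0.574 to 0.665 and 0.640 to 0.789.

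**Figure D3:**
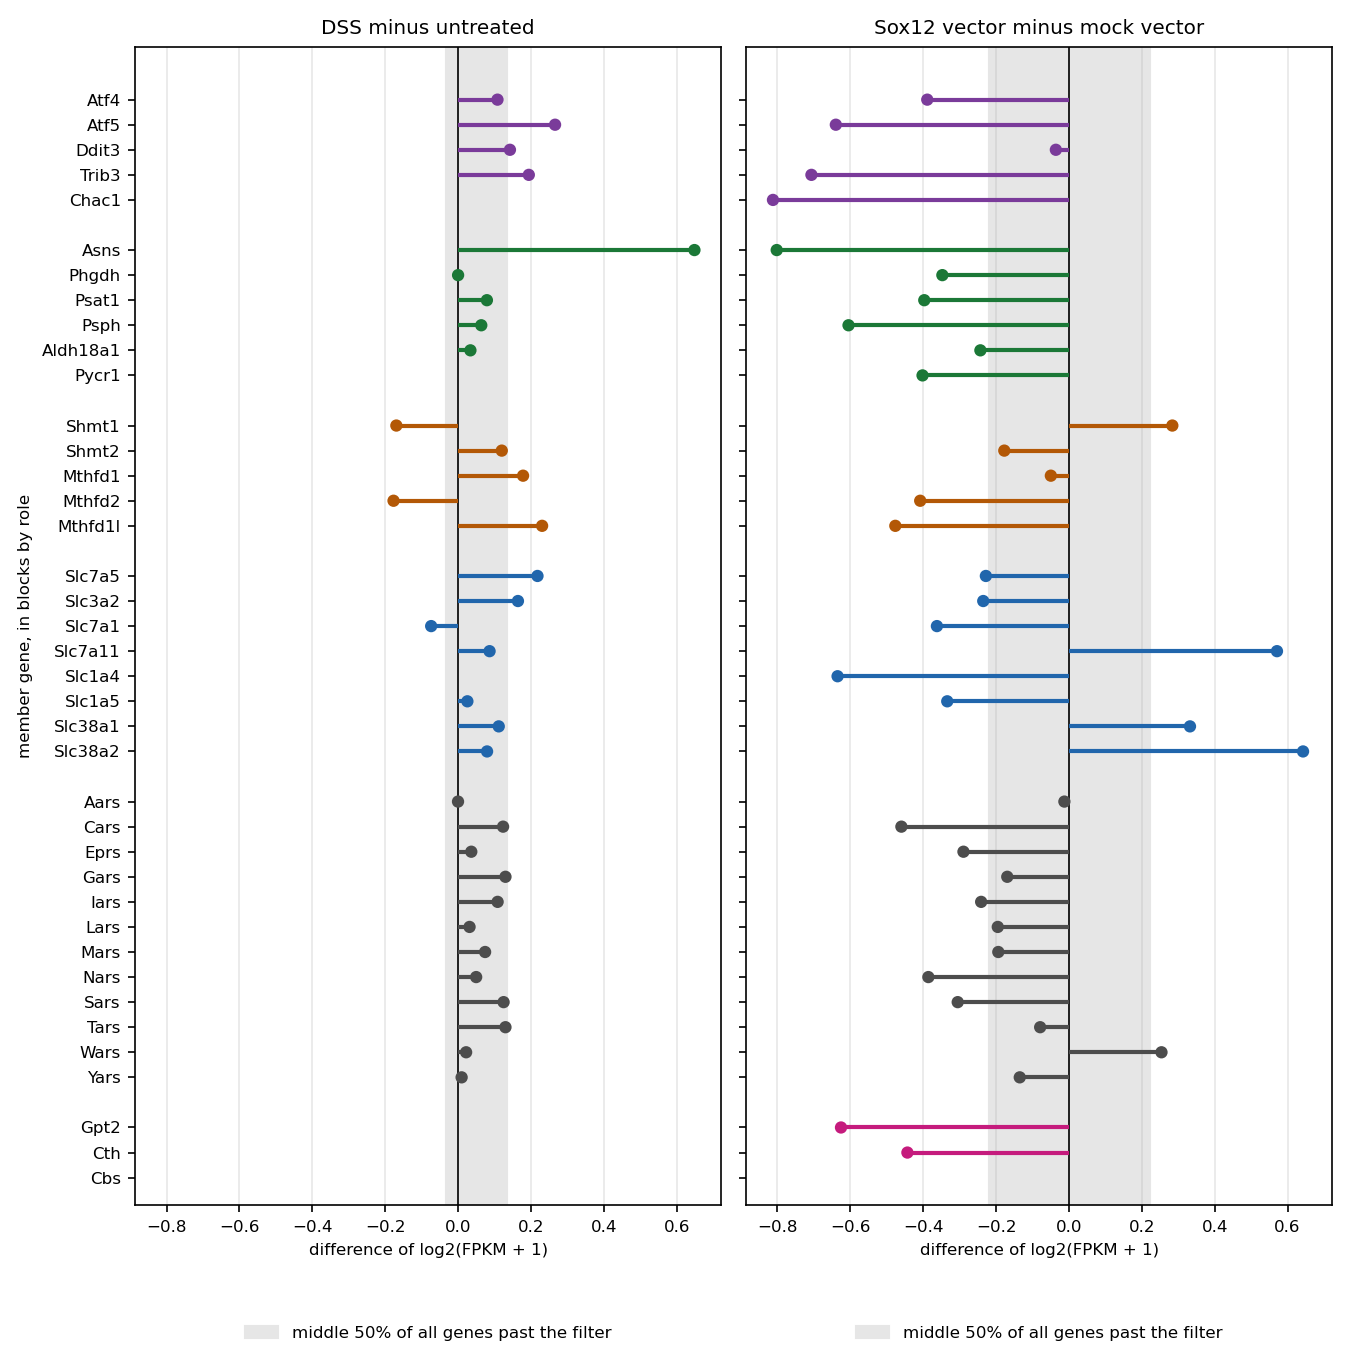
Difference of log2(FPKM + 1) for each member past the filter, DSS minus untreated (left) and Sox12 vector minus mock vector (right), with the middle 50% of all genes shaded. In the right panel 33 of 38 members lie below 0 and Slc38a2 lies highest, and in the left panel 29 of 33 lie above 0 (21 with the median difference of all genes set to 0), most of them inside or near the shaded band.

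Members with and without the element core were mostly lower in Sox12 cells. Of the members with the core 10 of 11 were lower (median -0.24), and of those with a window but no core 17 of 19 (median -0.31). Outside the list, 229 genes past the filter held the core and 54.1% of them were lower, with a median of -0.03. Of 8368 genes without the core 50.6% were lower (median -0.01). These values describe letters near the gene start and say nothing of binding.

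In splenic Treg the members differed little between the libraries and in the other direction. Of the 33 members listed, all past the filter, 29 (87.9%) were higher in the DSS library, against 66.1% of all genes, and 4 were lower, against 33.9%. With the median difference of all genes set to 0 the split was 21 higher (63.6%, against 49.995% of all genes) and 12 lower. With 75th percentiles made equal it was 23 (69.7%, against 55.5%) and 10, and with totals made equal without the 20 highest genes 26 (78.8%, against 59.2%) and 7. The median of the members was 0.09, against 0.05 for all genes. By 1.5 times or more on the FPKM + 1 scale only Asns was higher (0.872% of all genes were), and no member was as much lower (0.446% of all genes). None differed by 2 times, where 0.19% of all genes were higher and 0.0759% lower.

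Asns stood apart from the other members in Treg. It had 9.89 FPKM without and 16.1 FPKM with DSS, a ratio of 1.63 and a log2 difference of 0.65, and 99.4% of the genes past the filter had a lower difference. The same gene was also among the lowest with the Sox12 vector, at percentile 3.35 of the differences there. Atf5 followed at a low level, with 1.85 FPKM without and 2.43 FPKM with DSS (ratio 1.31). Trib3 had 1.26 and 1.59 FPKM (ratio 1.26). Ddit3 had 14.1 and 15.6 FPKM, and Atf4 had 93.2 and 101 FPKM (ratio 1.08). The 4 regulators listed were therefore all higher in the DSS library, under each scaling run, where 66.1% of all genes were higher without rescaling. Atf4 had the smallest difference of the 4. The levels of Trib3 and Atf5 were low in libraries of unknown depth, so their direction is uncertain.

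The other synthesis enzymes were close to equal in the Treg libraries. Phgdh had 10.7 FPKM in both, Psat1 20.003 FPKM without and 21.2 FPKM with DSS, and Psph 11.1 and 11.7 FPKM. Aldh18a1 had 21.8 and 22.3 FPKM. The differences of Phgdh, Aldh18a1, Slc1a5, Eprs, Lars, Nars, Wars and Yars turned negative when the median difference was set to 0. Serine synthesis thus differed little where asparagine synthetase stood out.

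One-carbon enzymes in Treg did not divide by compartment. Mthfd1l (17.7 and 21.0 FPKM, ratio 1.18), Mthfd1 (22.6 and 25.7 FPKM, ratio 1.14) and Shmt2 (30.6 and 33.4 FPKM, ratio 1.09) were higher in the DSS library. Mthfd2 had 23.8 FPKM without and 20.9 FPKM with DSS (ratio 0.88). Shmt1 had 5.21 and 4.53 FPKM (ratio 0.868). These were the lowest ratios of the members in Treg, and each compartment held 1 lower enzyme.

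Transporters were higher in the DSS library in 6 of 7 cases, against 66.1% of all genes, by small amounts with a median of 0.09. Slc1a5 turned lower with the median difference set to 0. The LAT1 partners led, with Slc7a5 at 17.4 FPKM without and 20.4 FPKM with DSS (ratio 1.17) and Slc3a2 at 34.0 and 38.2 FPKM (ratio 1.12). Slc7a11 had 1.64 and 1.80 FPKM, Slc38a1 19.2 and 20.9 FPKM, Slc38a2 31.6 and 33.5 FPKM and Slc1a5 38.5 and 39.2 FPKM. Slc7a1 was lower, at 12.6 and 11.9 FPKM (ratio 0.946). Synthetases lay close to all genes, with a median of 0.06 against 0.05. They were higher in 11 of 12 cases, where 66.1% of all genes were, with ratios up to 1.10. The largest log2 difference among these 11 was that of Gars (35.5 and 38.9 FPKM) and the smallest that of Yars (12.0 and 12.1 FPKM). However, Eprs, Lars, Nars, Wars and Yars turned lower with the median difference set to 0. Cars had 9.35 and 10.3 FPKM, Iars 14.7 and 15.9 FPKM, Sars 30.4 and 33.3 FPKM, Tars 24.6 and 27.0 FPKM and Mars 16.8 and 17.8 FPKM, all higher under each scaling run. Nars had 40.3 and 41.8 FPKM, Eprs 27.9 and 28.6 FPKM, Lars 19.0 and 19.5 FPKM and Wars 26.2 and 26.6 FPKM. Aars stood at 18.04 FPKM in both libraries.

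Beside these values the markers of erythroid cells and of basophils and mast cells, given above, were higher in the DSS library. Of the 5 neutrophil and myeloid precursor markers Mpo, Prtn3 and Elane were higher and S100a8 and S100a9 lower. Plasma cell markers were mostly lower. The part of all these cells in the level of Asns and the other members was not tested.

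**Figure D4:**
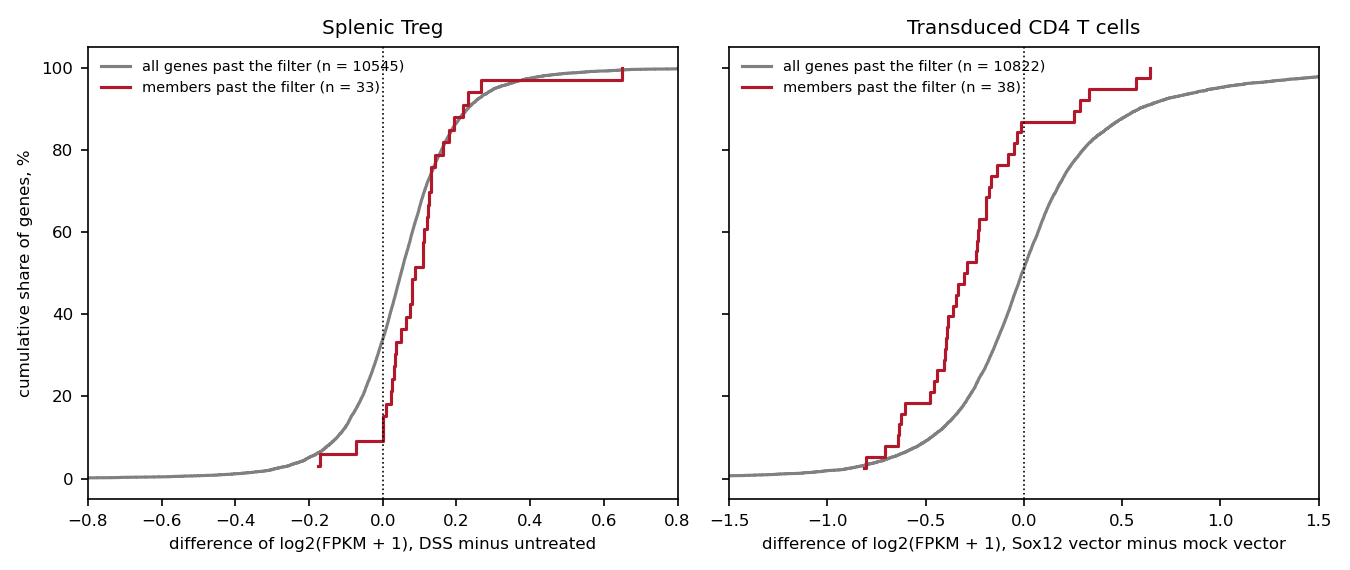
Cumulative share in % of genes ordered by their difference of log2(FPKM + 1), for all genes past the filter (grey) and the members (red). The red curve lies left of the grey one in the vector experiment (medians -0.30 and -0.01) and slightly right of it over its lower range in Treg (medians 0.09 and 0.05).

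The experiments share no library, and their tables were made separately, so levels are set side by side without a comparison. The member median was 19.0 FPKM in untreated Treg, where all genes past the filter had 12.5 FPKM, and 20.9 FPKM in DSS Treg (all genes 12.9 FPKM). In the transduced cells it was 45.1 FPKM in mock and 50.6 FPKM in Sox12 cells, which are levels of different genes (Slc7a1 and Wars), with 12.8 and 13.1 FPKM for all genes. Of the 33 members past the filter in both tables, 25 (75.8%) were higher in the DSS library and lower with the Sox12 vector, against 33.5% of 9958 genes. With median differences set to 0 these were 18 members (54.5%) against 24.4% of genes. Such counts are large wherever most members lie above 0 in one experiment and below 0 in the other. They therefore say nothing of a link between the experiments. Across the 33 members the differences of both experiments had a Spearman rho of -0.21, against 0.04 over the 9958 genes, given as a description across genes, which are not independent.

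Other genes known as ATF4 targets or partners, taken from a list of 17, were also chosen with earlier results of these data known. Their medians lay on the same side of 0 as those of the members in each experiment. In the vector experiment 11 of 14 past the filter were lower with a median of -0.52, against 51.1% and -0.01 for all genes. Lower by at least 1.5 times on the FPKM + 1 scale were 7, where 6.88% of all genes were. Nupr1, a small stress-induced chromatin protein, had 22.7 FPKM in mock and 7.97 FPKM in Sox12 cells (ratio 0.351). Stc2, a secreted glycoprotein, had 61.1 and 23.8 FPKM (ratio 0.389). These 2 were the list's genes past the filter that were at least 2 times lower. Vldlr, which did not pass the filter, had 1.40 FPKM in mock and 0.153 FPKM in Sox12 cells. In Treg 10 of 11 were higher with a median of 0.14, against 66.1% and 0.05 for all genes, with Ddit4, an inhibitor of mTORC1, at 203 FPKM without and 239 FPKM with DSS and Herpud1 at 43.3 and 44.9 FPKM. Eif4ebp1, which encodes the translation inhibitor 4E-BP1 and was singled out after its values were seen, had 9.31 and 15.1 FPKM in Treg (ratio 1.62) and 78.9 and 42.3 FPKM in the transduced cells (ratio 0.537), and so stood, like Asns, above the control in one experiment and below it in the other.

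The genes upstream of ATF4 did not lean as one in the vector experiment, with 4 of 9 higher, 5 lower and a median of -0.02. Of all genes 48.9% were higher and 51.1% lower, with a median of -0.01. Eif2s1, the phosphorylated subunit of eIF2, had 45.6 and 42.7 FPKM, and Eif2b5, of its exchange factor, 42.7 and 44.6 FPKM. Of the 4 kinases, named after their values were seen, Eif2ak2 (PKR, an interferon-induced gene) had 17.1 and 8.60 FPKM and Eif2ak4 (GCN2) 8.24 and 6.46 FPKM, both lower with the Sox12 vector. Eif2ak3 (PERK) had 8.60 and 10.1 FPKM and Eif2ak1 (HRI) 25.7 and 29.4 FPKM, both higher. In Treg 6 of 9 were higher with a median of 0.06, close to the 66.1% and 0.05 of all genes. Ppp1r15a and Ppp1r15b, subunits that direct a phosphatase to eIF2, had 52.2 and 60.1 FPKM and 39.4 and 44.6 FPKM there. The levels of these transcripts do not measure phosphorylation.

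The list of mTORC1 and Myc genes was split evenly with the Sox12 vector, 8 of 16 higher and 8 lower, with a median of 0.02. Of all genes 48.9% were higher, with a median of -0.01. Mycn had 1.81 FPKM in mock and 7.10 FPKM in Sox12 cells. Sesn1, a leucine sensor relative that restrains mTORC1, had 8.44 and 25.1 FPKM. Myc itself, named after its values were seen, had 145 and 153 FPKM. In Treg 10 of 15 were higher with a median of 0.03, against 66.1% and 0.05 for all genes. Max had 61.8 and 65.1 FPKM and Sesn1 59.3 and 59.9 FPKM there, while Myc had 36.6 and 31.0 FPKM.

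Other enzymes and carriers of the same pathways were mixed in direction with the Sox12 vector, where 48.9% of all genes were higher and 51.1% lower (median -0.01). Other amino acid transporters were 8 higher and 8 lower with a median of -0.0011, and Slc43a2, a leucine carrier, was higher at 3.47 and 9.50 FPKM. Other folate and methionine cycle enzymes had 9 of 16 genes higher (median 0.06). Among them Gldc, of the glycine cleavage system, had 0.604 FPKM in mock and 6.47 FPKM in Sox12 cells, and Mthfd2l, the close relative of Mthfd2, had 1.38 and 5.11 FPKM. Mthfd2l thus stood on the other side of the mock vector level from Mthfd2. Other amino acid enzymes had 13 of 19 genes lower (median -0.13), although Glul, which makes glutamine, had 27.1 and 58.6 FPKM.

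In Treg the corresponding lists had medians between 0.02 and 0.10, against 0.05 for all genes, of which 66.1% were higher. Other transporters were higher in 11 of 16 cases (median 0.06), with Slc38a10 at 27.8 and 28.8 FPKM and Sfxn1, a mitochondrial serine carrier, at 18.9 and 20.9 FPKM. Other folate and methionine cycle enzymes were higher in 10 of 14 (median 0.07), with Mat2a at 62.9 and 57.6 FPKM and Mat2b at 46.1 and 49.3 FPKM. Other amino acid enzymes were higher in 13 of 18 (median 0.10), with Got2 at 41.8 and 47.0 FPKM and Glud1 at 58.7 and 61.4 FPKM. Other cytoplasmic synthetases and scaffold proteins were higher in 7 of 11 (median 0.02), with Kars at 52.9 and 53.7 FPKM and Qars at 49.5 and 53.2 FPKM, and mitochondrial synthetases in 9 of 17 (median 0.02), with Lars2 at 62.3 and 69.2 FPKM and Tars2 at 34.2 and 32.1 FPKM.

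**Figure D5:**
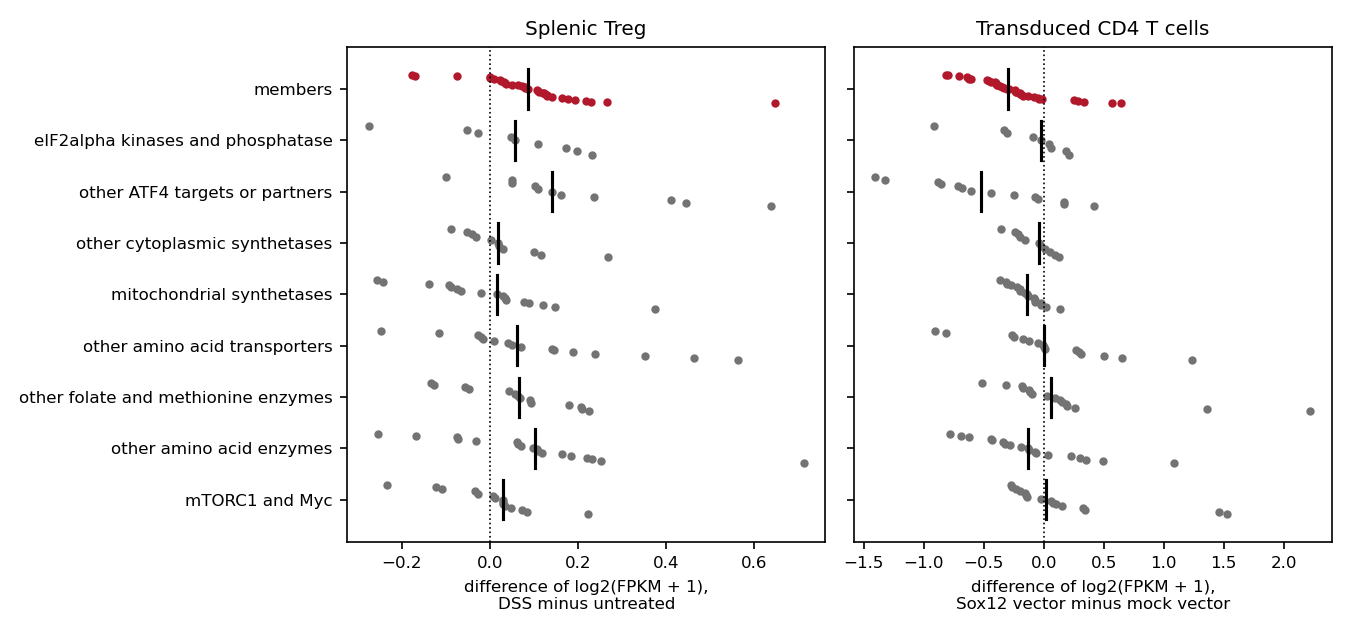
Difference of log2(FPKM + 1) of each gene past the filter in the members (red) and in 8 lists of related genes (grey), DSS minus untreated (left) and Sox12 vector minus mock vector (right), with a bar at each median and separate axes. In the right panel the median of other ATF4 targets or partners (-0.52) lies below that of the members (-0.30), and in the left panel it lies highest (0.14).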

How the data were processed

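Titles gave the groups, and column names gave the libraries. Cufflinks and the mouse build mm9 are named in the submitters' processing notes. The sources used here name no aligner, annotation or use of strand. The authors deposited linear FPKM for the Treg libraries with a column of their DSS to untreated ratio, and log2(FPKM + 1) values for the vector libraries with a column of their log2 difference. Recomputing the deposited ratio and the deposited log2 difference gave the same values within 0.000449 (relative) and 5e-10. Log2 values were turned back to FPKM.

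Rows whose names a spreadsheet had turned into dates were dropped: 16 of the DSS table (0.261% and 0.263% of the summed FPKM) and 25 of the vector table (0.200% and 0.218%). Differences used a pseudocount of 1, for genes whose 2 libraries averaged 1 FPKM or more. No test was run, because each group had 1 library. FPKM keeps no counts. Depth in the vector table was estimated from genes with 1 annotated transcript (GENCODE vM21) and values below 0.1 FPKM, as the most frequent number of fragments that 1 FPKM and 1 kb imply (20 of 296 genes with the mock vector and 26 of 340 with the Sox12 vector). It rests on few genes. Of 1707 low genes, 263 shared 1 ratio between the libraries, which gives a relative depth of 1.05. Counting intervals are exact (Clopper-Pearson, 95%) for the median length of a gene's coding transcripts, and cover counting error only.

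The members and lists were chosen with earlier results of these data known. All members were named, and of each other list the genes with a difference of at least 1, up to 4, or else the 2 with the highest mean. Promoters were shown for up to 8 members with a motif, highest mean in the vector table first, with 4 added after the values were seen. Alternatives changed the pseudocount, filter, scaling and size of difference. The difference step was tested on simulated data whose changed genes differed by more than any member did. That test does not bear on differences of the size given here. Python 3.11.15, pandas 2.3.3, numpy 2.4.6, scipy 1.17.1 and matplotlib 3.10.9 were used.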

Additional observations from a re-analysis of the deposited data

How the results depend on the processing

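The pseudocount (0.1 or 5), the filter (none, or a mean of 5 FPKM) and the scaling of the libraries were varied. Another pseudocount or filter cannot turn the direction of a gene, so only the scalings bear on direction. In the vector experiment the median of the members stayed between -0.33 and -0.24. Of 38 members 0 turned direction with the median difference set to 0 or with 75th percentiles made equal. With totals made equal without the 20 highest genes 3 did and 8 were higher. With a pseudocount of 0.1, 1 member, Chac1, was at least 2 times lower. By at least 1.5 times on the FPKM + 1 scale 7 were lower and 1 higher. In Treg 8 of 33 members turned direction with the median difference set to 0. With 75th percentiles made equal 6 did, and with totals made equal without the 20 highest genes 3 did. With the median difference set to 0 the members had a median of 0.0367 and 12 were lower (36.4%, against 49.995% of all genes). With 75th percentiles made equal 10 were lower (30.3%, against 44.5%), and with totals made equal without the 20 highest genes 7 were (21.2%, against 40.8%). By at least 1.5 times on the FPKM + 1 scale 1 member was higher in Treg. No paired analysis was possible because each group holds 1 library, and none could be left out. In the vector experiment depth limits Cbs and Pycr1 most. In Treg depth is unknown, so the members it limits most cannot be named.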
